A study of Mus musculus with 6 samples.

Results

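Histone and chromatin genes were compared between aggregated primary mouse Sertoli cells and the aggregated mouse Sertoli cell line MSC-1. The members are the genes of the authors' table of 4-fold changes whose title names a histone, chromatin, a bromodomain, a chromobox, polycomb, SWI/SNF, a demethylase, a DNA methyltransferase, a high mobility group protein, a PHD finger or a chromodomain. Titles with the word testis and the genes Brdt, Kdm5d, Uty and Cenpa were left out. This gave 23 of the 2295 genes of that table, measured by 31 of its 3198 probe sets. A further 3 probe sets met the wording but carry several gene symbols, and they are described apart.

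Chromatin is DNA wrapped around histones, and its state is set by proteins with separate tasks. Writers add chemical marks to histones or DNA, erasers take them off, and readers bind marked or bare nucleosomes, while remodellers move nucleosomes with energy from ATP. In the testis, germ cells exchange histones and repackage their chromatin as they mature, and Sertoli cells, which nurse them, stop dividing before puberty. In dividing cells, histone deposition and the copying of DNA methylation follow DNA replication.

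The series has 6 arrays, 3 of primary Sertoli cells and 3 of MSC-1 cells, and biotin-labelled cRNA was made from 10 ug of total RNA, per the labels. The primary cells came from C57BL/6 x 129 mice, aged 10 to 20 days according to the growth protocol and 19 to 20 days according to the series design, a difference that was not settled. MSC-1 is a line from a testicular tumour of a mouse with the SV40 large T antigen. Both kinds of cells had no treatment and had aggregated for 48 h in Ham's F10 medium with 10% serum, and all MSC-1 samples are of this 1 line. Whether replicates came from separate cultures or animals is not stated in the labels. If they were not, the p-values below measure technical spread only.

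Each value is a probe set signal in arbitrary units, on a scale with a median of 23 to 29.8 over the arrays and the same trimmed mean on each. Signals of different probe sets cannot be ranked against each other, so only the arrays are compared. Signals correlated at 0.928 to 0.949 between arrays of a group and at 0.786 to 0.796 between the groups (Pearson's r of log2 signals across 45037 probe sets, which are not independent). The value table settles which way the authors' folds run: all 1902 positive folds belong to probe sets with a higher mean log2 signal in primary cells, and all 1296 negative ones to probe sets higher in MSC-1 cells.

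Markers of the cell types were read from the same table, because a probe set without a listed name could not be assigned. Of 17 Sertoli cell markers 8 were listed, and 7 of them were higher in primary cells, where these 7 summed to 7749.9 to 8356.4 against 475.5 to 664.8 in MSC-1 cells. All 8 together summed to 8304.2 to 8726.2 and 4168.2 to 4983.3. Among these 7, Aard, Cst12 and Defb19 averaged 1.23 to 13.9 in MSC-1 cells, below the median of every array. The exception was Trf, the transferrin gene, at 433 in primary and 4116 in MSC-1 cells on average. Of 24 markers of meiotic germ cells 11 were listed, all higher in primary cells, with summed signals of 5296.7 to 7068.8 there and of 56.4 to 60.3 in MSC-1 cells. The 2 listed of 8 spermatogonial markers, Id4 and Uchl1, were also higher in primary cells, with sums of 1233.4 to 1487.8 against 59.9 to 68.2. Of 25 proliferation markers 15 were listed, all higher in MSC-1 cells, with summed signals of 15814.4 to 17335.4 there and of 2062.4 to 2616.8 in primary cells. The 4 listed of 8 peritubular markers and the 3 listed of 8 macrophage markers were higher in primary cells, with sums of 1555.2 to 2885 and of 578 to 997, against at most 124.5 and 74.3 in MSC-1 cells. The 7 listed of 10 glial and melanocyte markers summed to 6499.6 to 9799.4 in MSC-1 cells and to at most 135 in primary cells. No endothelial marker of 5 was listed, and Star was the only one listed of 7 Leydig cell markers. In RNA from mixed cells, fewer cells of a type and less RNA per cell cannot be told apart, and the part of these cell types in the differences below was not tested.

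Of the 23 histone and chromatin genes, 11 had higher signals in the primary cells and the other 12 in the line. The primary side held the largest differences, led by the PHD finger gene Phf7, the demethylase gene Kdm4d, the histone chaperone gene Nasp and the remodelling ATPase genes Smarca1 and Smarca2. The largest differences on the MSC-1 side were those of Cdt1, Hmgb2, Hist1h4j, Chaf1b and H1f0. Of these, Cdt1 is a replication licensing gene, Chaf1b a chromatin assembly gene and Hmgb2 a high mobility group gene, while Hist1h4j and H1f0 are histone genes. The primary share of 47.8% compares with 62.0% of all genes in the table. The median log2 difference on the primary side was 3.41, against 4.56 over all primary-side genes of the table, and on the MSC-1 side it was -2.24, against -2.51.

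In limma's fit across the 45037 probe sets of the array, with Benjamini-Hochberg adjustment and a threshold of 0.05, all 23 genes passed, with adjusted p-values of 7.2e-05 to 0.00906. Across the array 35.2% of probe sets passed, 17.1% as higher in primary and 18.1% as higher in MSC-1 cells, and 99.8% of the probe sets of the authors' table passed. The members were taken from a table selected on this same contrast, so their passing is a description and no finding about them. The groups did not overlap for any of the 31 probe sets, a separation seen in 51.2% of the array, 24.1% as higher in primary and 27.1% as higher in MSC-1 cells. At the edge of the selection stood Baz1b, with a probe set at 4.016-fold, and no names were available for probe sets under 4-fold.

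**Figure D1:**
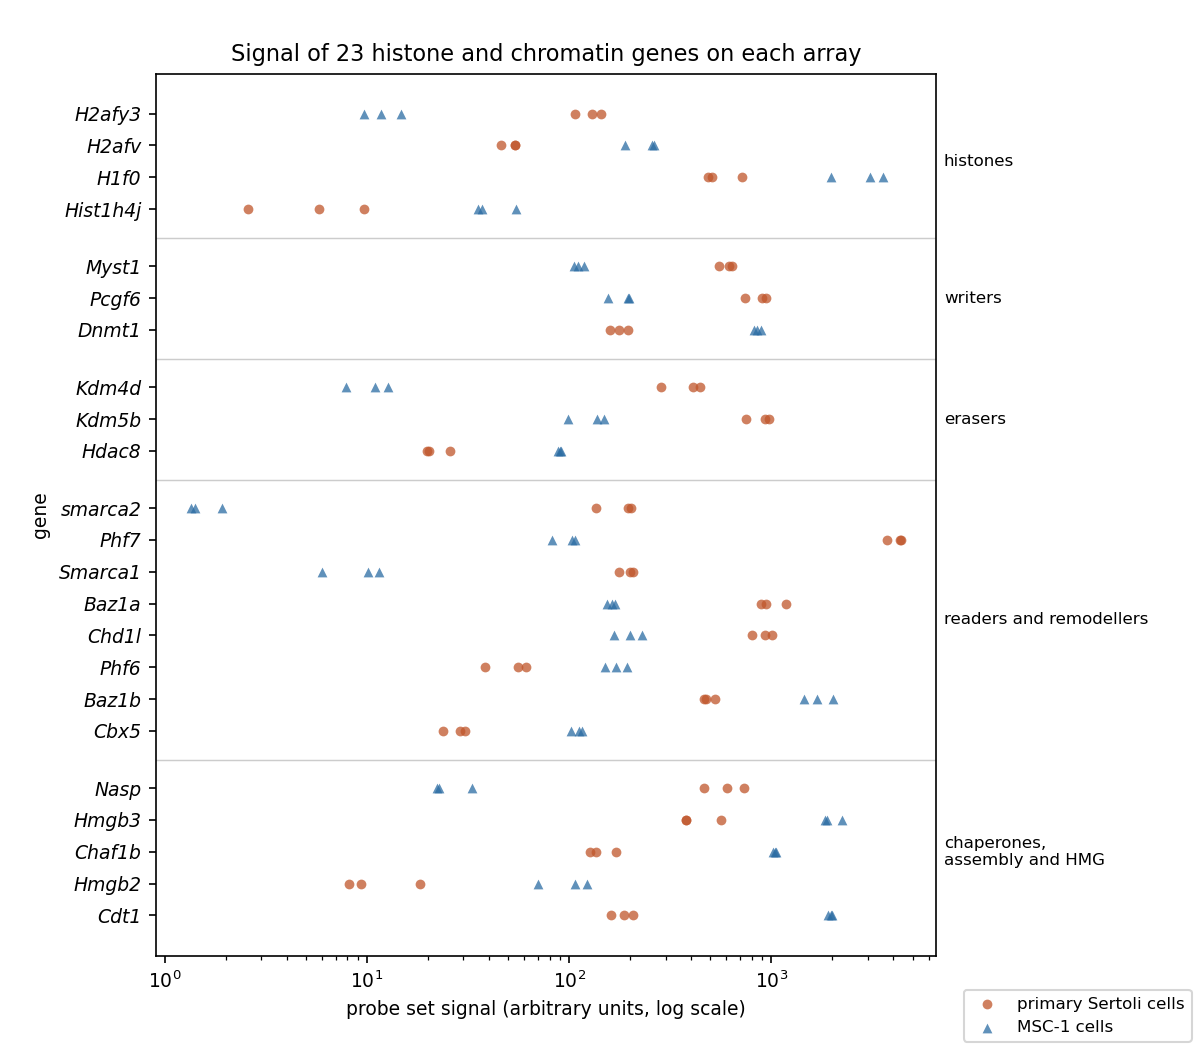
Signal of each of the 23 genes on each array (log scale, arbitrary units), with primary Sertoli cells as circles and MSC-1 cells as triangles, grouped by role. For no gene do the circles and triangles overlap, and smarca2 lies lowest in MSC-1 cells, at 1.35 to 1.92, near the floor of 1. With 32 added to every signal its log2 difference is 2.63, below the 5.01 of Phf7.

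**Figure D2:**
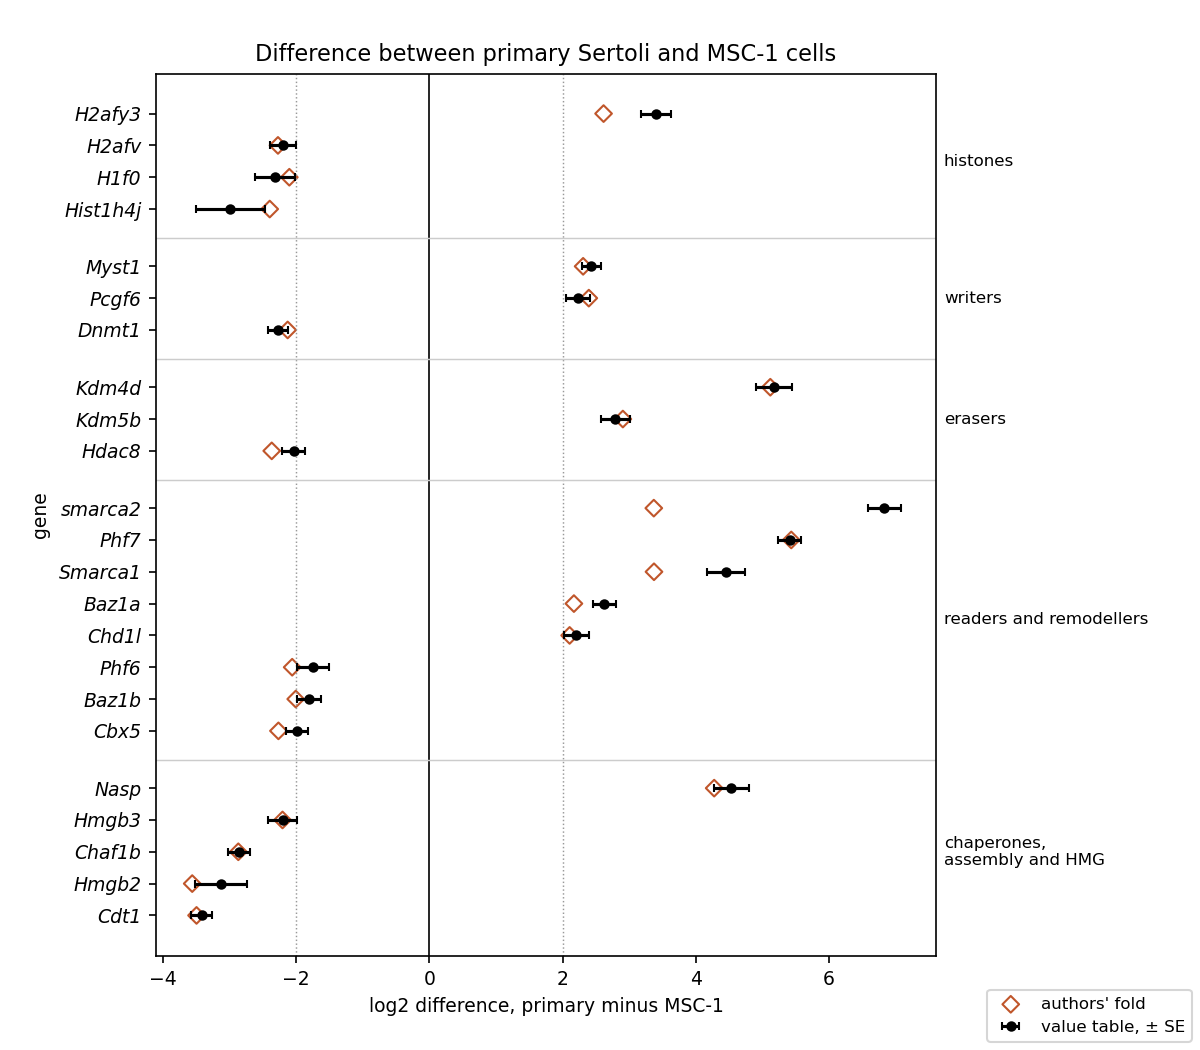
Log2 difference between the groups (primary minus MSC-1) from the value table, with the moderated standard error of limma's fit (filled). The fold of the authors' deposited table is on the same scale (open), and dotted lines mark a 4-fold difference. The 11 genes on the right reach 6.83 and the 12 on the left reach -3.41, and smarca2 shows the widest gap between the 2 sources.

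The promoters of the genes with the largest folds in the authors' deposited table, 2 on each side, are shown as the 250 bases before the gene start, from RefSeq's table for GRCm38.p6, so that the regulatory sequence of both sides can be set beside the values. Phf7 (chr14:31251316-31251565, minus strand) and Kdm4d (chr9:14500483-14500732, minus strand) are higher in primary cells. Hmgb2 (chr8:57511593-57511842, plus strand) and Cdt1 (chr8:122567765-122568014, plus strand) are higher in MSC-1 cells. Capitals mark matches, on either strand, to the CCAAT box (CCAAT), the CHR element of cell cycle genes (TTTGAA) and the GC box (GGGCGG).
Phf7: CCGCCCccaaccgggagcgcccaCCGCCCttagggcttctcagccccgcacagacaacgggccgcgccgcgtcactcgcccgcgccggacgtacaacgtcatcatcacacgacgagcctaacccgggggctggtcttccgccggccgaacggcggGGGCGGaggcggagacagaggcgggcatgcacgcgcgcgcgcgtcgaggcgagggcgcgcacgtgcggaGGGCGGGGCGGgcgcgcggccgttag
Kdm4d: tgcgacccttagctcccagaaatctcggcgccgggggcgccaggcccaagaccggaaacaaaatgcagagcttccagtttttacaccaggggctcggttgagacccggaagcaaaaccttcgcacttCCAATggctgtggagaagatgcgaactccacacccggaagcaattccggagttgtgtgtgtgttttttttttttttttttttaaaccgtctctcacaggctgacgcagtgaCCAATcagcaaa
Hmgb2: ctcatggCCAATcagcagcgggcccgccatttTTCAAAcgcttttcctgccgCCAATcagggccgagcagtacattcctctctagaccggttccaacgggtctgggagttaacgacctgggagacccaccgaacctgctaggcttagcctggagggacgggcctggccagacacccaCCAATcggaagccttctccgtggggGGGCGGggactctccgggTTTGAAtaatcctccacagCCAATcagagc
Cdt1: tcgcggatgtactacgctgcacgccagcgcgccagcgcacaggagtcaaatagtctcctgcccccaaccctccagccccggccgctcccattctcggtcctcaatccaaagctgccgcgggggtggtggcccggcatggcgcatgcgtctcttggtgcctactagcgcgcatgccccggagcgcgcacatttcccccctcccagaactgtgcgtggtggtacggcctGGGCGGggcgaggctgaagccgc

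The Hmgb2 promoter held 4 CCAAT boxes, the nearest 11 bases before the start, with 2 CHR matches at 218 and 30 bases and a GC box at 48 bases. The Phf7 promoter held 5 GC boxes, of which those at 26 and 21 bases before the start overlap by 1 base, and no CCAAT box. The Kdm4d promoter held 2 CCAAT boxes, at 123 and 12 bases, and Cdt1 a single GC box at 23 bases. A promoter was found for 20 of the 23 genes. A CHR match was present in 5 of 11 promoters on the MSC-1 side and 1 of 9 on the primary side, against 16.3% of 27025 genes. A CCAAT box was present in 7 of 11 and in 4 of 9, against 34.5% of all, and a GC box in 8 of 11 and 6 of 9, against 32.9%. Neither the E2F words TTTGGCGC, TTTCCCGC, TTTCGCGC and TTTGCCGC nor the cAMP response element TGACGTCA was found in any of the 20, and they occur in 1.91% and 1.62% of all promoters. The windows of the 20 genes had a median GC content of 56.8%, against 52% over all genes, and the counts were not adjusted for it. These counts describe letters in the windows and were not tested.

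Among the 4 histone genes, 3 were higher in MSC-1 cells and 1 in primary cells. H1f0 encodes the replacement linker histone H1.0, known for its rise in cells that leave the cycle. Its signals were 713.7, 486 and 508.1 on the primary arrays and 3585.5, 1977.1 and 3079.4 on the MSC-1 arrays, so that MSC-1 was high throughout although its arrays were spread widely. The log2 difference was -2.32 ± 0.30 (SE, n = 3 per group, adjusted p = 0.00325). Here and below, SE is the moderated standard error of limma's fit, which borrows variance across probe sets. H2afv, the gene of an H2A.Z-type variant placed at regulatory nucleosomes, had signals of 54.0, 46.0 and 53.8 in primary and 263.1, 188 and 257.8 in MSC-1 cells. All 3 MSC-1 arrays were above every primary array, and the log2 difference was -2.19 ± 0.20 (SE; adjusted p = 0.00114).

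Hist1h4j, a gene of the core histone H4 that RefSeq now calls H4c11, was dim in primary cells. Its signals were 2.57, 5.79 and 9.62 in primary and 35.3, 54.3 and 37.0 in MSC-1 cells, with a log2 difference of -2.99 ± 0.52 (SE; adjusted p = 0.00906). With 32 added to each signal before the logarithm, the difference was -0.96. Histone H4 is encoded by many near-identical genes, so which of them the probe set read is uncertain. H2afy3, in RefSeq Macroh2a3, was the histone gene on the primary side, at 106.9, 144 and 129.9 in primary and 9.66, 11.7 and 14.8 in MSC-1 cells. Its log2 difference was 3.41 ± 0.23 (SE; adjusted p = 0.000486), and 1.85 with 32 added.

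A pair of probe sets shared by the 6 symbols Hist1h2ad, Hist1h2an, Hist2h2aa1, Hist2h2aa2, Hist2h2ac and Hist2h3c1 went with H2afy3 and against the other histone genes. One had signals of 619.6, 822.9 and 699.8 in primary and 131.4, 121 and 109 in MSC-1 cells. The other stood at 1206.9, 1366.1 and 1318.8 in primary and 189.8, 193.3 and 196.3 in MSC-1 cells. Their log2 differences were 2.56 ± 0.18 and 2.75 ± 0.14 (SE), and no single gene can be named from them.

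Of the 3 writers, the maintenance DNA methyltransferase gene Dnmt1 was higher in MSC-1 cells. Its signals were 159.2, 195.4 and 176.9 in primary and 893.7, 818 and 851.2 in MSC-1 cells, and the groups were narrow and far apart. The log2 difference was -2.27 ± 0.15 (SE; adjusted p = 0.000484). Myst1, in RefSeq Kat8, encodes an acetyltransferase of histone H4 known as MOF. It stood at 553.8, 617.6 and 637.1 in primary and 118.1, 105.6 and 110.8 in MSC-1 cells, high on every primary array, with a log2 difference of 2.43 ± 0.14 (SE; adjusted p = 0.000374).

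Pcgf6, a ring finger subunit of a polycomb complex that ubiquitinates histone H2A, was also on the primary side. Its signals were 737.4, 904.4 and 943.6 in primary and 198, 156.1 and 195.8 in MSC-1 cells, a log2 difference of 2.23 ± 0.19 (SE; adjusted p = 0.000897). A second listed probe set of Pcgf6 stood at 474.8, 481.5 and 505 in primary and 77.3, 76.6 and 68.0 in MSC-1 cells, on the same side. Probe sets under 4-fold had no names, so any of the same gene with a smaller difference could not be seen. This limit holds for every gene with several listed probe sets.

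Among the 3 erasers, both demethylase genes were higher in primary cells and the deacetylase gene in MSC-1 cells. Kdm4d, whose product removes methyl groups that mark silent chromatin on histone H3 and which is known for its expression in mouse testis, had signals of 285.1, 411.6 and 443.2 in primary cells. In MSC-1 cells it had 11, 7.87 and 12.8, below the median of each array. The log2 difference was 5.17 ± 0.28 (SE; adjusted p = 0.000281), and 3.26 with 32 added to the signals. The authors' deposited table gives 34.8-fold, close to the 36.1-fold of the value table. The 11 listed meiotic germ cell markers were also higher in primary cells, at 56.4 to 60.3 in sum on the MSC-1 arrays. The listed spermatogonial, peritubular and macrophage markers and 7 of 8 listed Sertoli cell markers were on that side too. So were 62.0% of all genes of the table, and the part of any cell type in the Kdm4d difference was not tested.

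Kdm5b, a demethylase gene whose product acts on the histone H3 mark of active promoters, had signals of 749.9, 971.2 and 927.2 in primary and 98.8, 148.3 and 137.9 in MSC-1 cells. Its log2 difference was 2.79 ± 0.22 (SE; adjusted p = 0.000809). Its other listed probe set ran from 131.5 to 190 in primary and from 27.8 to 36.8 in MSC-1 cells, on the same side. Hdac8, the gene of a class I histone deacetylase, had 25.8, 20.2 and 19.8 in primary and 90.8, 87.6 and 90.2 in MSC-1 cells. The SD over the MSC-1 arrays was 1.72 signal units, and the log2 difference was -2.04 ± 0.17 (SE; adjusted p = 0.000853) and -1.17 with 32 added.

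The 8 readers and remodellers were divided 5 to 3, near the 62.0% of all genes of the table that were higher in primary cells, and the larger differences were on the primary side, as over the whole table. Phf7 encodes a PHD finger protein of male germ cells, known from Drosophila for male germline identity and from mouse for the exchange of histones in spermatids. Its brightest probe set stood at 3719.7, 4359.1 and 4313.4 in primary and 82.7, 102.7 and 107.2 in MSC-1 cells, and its log2 difference of 5.41 ± 0.17 (SE) had the smallest adjusted p among the 23 genes, 7.2e-05. The other 2 listed probe sets of Phf7 gave 3181.8 to 3511.7 and 1536.5 to 1863.9 in primary cells. In MSC-1 cells they gave 74.4 to 83.8 and 16.6 to 26.7, and the folds of the 3 probe sets from the value table ran from 42.5 to 81.4.

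Smarca2 encodes the ATPase BRM of SWI/SNF complexes, and the file writes it smarca2. Its probe set had 135.4, 201.6 and 196.1 in primary and 1.40, 1.35 and 1.92 in MSC-1 cells, at the bottom of the scale on the latter. The log2 difference of 6.83 ± 0.25 (SE; adjusted p = 9.47e-05) was the largest of the 23 genes, but it was 2.63 with 32 added to the signals. The authors' deposited table gives 10.3-fold for smarca2, against 113.6-fold from the signals. Smarca1, the gene of an ISWI-type ATPase, stood at 176.9, 200.5 and 206.3 in primary and 11.4, 5.98 and 10.1 in MSC-1 cells. Its log2 difference was 4.46 ± 0.28 (SE; adjusted p = 0.00043), or 2.46 with 32 added, and the authors' deposited table gives 10.4-fold against 22-fold from the signals.

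Baz1a and Baz1b, genes of bromodomain proteins that serve ISWI remodelling complexes, lay on opposite sides. Baz1a had 890, 943.2 and 1181 in primary and 168.3, 162.7 and 153 in MSC-1 cells, a log2 difference of 2.63 ± 0.17 (SE; adjusted p = 0.000456). Baz1b had 464.2, 473.5 and 525.7 in primary and 2018.9, 1453.5 and 1690.9 in MSC-1 cells, a log2 difference of -1.81 ± 0.18 (SE; adjusted p = 0.00153). The other 2 listed probe sets of Baz1b also lay on the MSC-1 side, at 86.7 to 95.6 against 458.2 to 484.7 and at 28.4 to 30.1 against 98.3 to 123.1.

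Chd1l, the gene of a remodeller recruited to DNA damage, had 800, 925.5 and 1012.4 in primary and 199.2, 228 and 166.9 in MSC-1 cells, a log2 difference of 2.21 ± 0.19 (SE; adjusted p = 0.000994). Cbx5 encodes HP1 alpha, a reader of silent chromatin. It had 30.6, 23.8 and 28.9 in primary and 102.4, 111.5 and 115.1 in MSC-1 cells, a log2 difference of -1.99 ± 0.16 (SE; adjusted p = 0.000886) and -1.25 with 32 added. Phf6, a PHD finger gene, had 61.5, 55.7 and 38.5 in primary and 149.6, 194 and 171.1 in MSC-1 cells, a log2 difference of -1.75 ± 0.24 (SE; adjusted p = 0.00395). Its other listed probe set had a difference of 4.32-fold on the same side. With Baz1b and Cbx5, Phf6 is 1 of 3 genes whose brightest probe set differed by under 4-fold in the value table although the authors listed it.

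Of the 5 genes of histone chaperones, chromatin assembly and high mobility group proteins, Nasp was higher in primary cells and the others in MSC-1 cells. Nasp encodes a chaperone of histones that exists in a testis form and a somatic form in mouse. Its signals were 462.5, 731.6 and 605.9 in primary and 33.1, 22.3 and 22.6 in MSC-1 cells, so the lowest primary array was 14.0 times the highest MSC-1 array. The log2 difference was 4.53 ± 0.26 (SE; adjusted p = 0.000354), and which form the probe set reads was not tested.

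Cdt1 licenses origins of replication and is no modifier of chromatin, and it is a member through its title only. It had 206.7, 186.6 and 161.3 in primary and 1966.8, 2002.8 and 1913.5 in MSC-1 cells, a log2 difference of -3.41 ± 0.16 (SE; adjusted p = 0.000187), the largest on the MSC-1 side. Its other listed probe set ran from 82.2 to 96.4 in primary and from 883.8 to 1007.9 in MSC-1 cells. Chaf1b, a subunit of the factor that deposits histones on newly copied DNA, had 127, 171.4 and 135.8 in primary and 1018.7, 1048.3 and 1054.6 in MSC-1 cells. The log2 difference was -2.86 ± 0.17 (SE; adjusted p = 0.000379).

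The DNA-bending proteins of the high mobility group were on the same side. Hmgb2, whose promoter is shown above, had 18.2, 9.32 and 8.16 in primary and 122.2, 70.1 and 107.1 in MSC-1 cells, a log2 difference of -3.12 ± 0.39 (SE; adjusted p = 0.00307) and -1.57 with 32 added. Hmgb3 had 565.2, 376.7 and 377.6 in primary and 1894.8, 2246.4 and 1843.2 in MSC-1 cells, a log2 difference of -2.20 ± 0.22 (SE; adjusted p = 0.00162). A probe set shared by Hmgb1 and 2 other symbols stood at 121.4, 101.8 and 80.1 in primary and 386.6, 357.8 and 429.8 in MSC-1 cells. The 15 listed proliferation markers were also higher in MSC-1 cells, at a median log2 difference of -2.75. So were the 7 listed glial and melanocyte markers, at a median of -5.95, and 1 of 8 listed Sertoli cell markers. That side holds 872 of the 2295 genes of the table, and the part of any of these traits in the differences was not tested.

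Within the primary group the arrays were not equal. Replicate 1 gave the lowest signal of the primary arrays for all 11 genes on the primary side, against 68.9% of 1423 primary-side genes of the table. Its median deviation from the primary mean over these 11 genes was -0.22 on the log2 scale, and that of the other 2 arrays 0.08 and 0.09. For the 12 genes on the MSC-1 side it gave the highest primary signal for 8, against 55.0% of 872 genes. The summed signal of the meiotic germ cell markers was also lowest on replicate 1, at 5296.7 against 7040.7 and 7068.8. The macrophage sum was 578.2 against 708.5 and 996.7, and the spermatogonial sum 1233.4 against 1487.8 and 1308.4. The peritubular sum was highest on replicate 1, at 2885 against 1555.2 and 1591.5. The summed Sertoli cell markers stood at 8443, 8304.2 and 8726.2, but single markers moved in opposite directions within this sum. Clu, the brightest of them, was highest on replicate 1, at 5623 against 3683 and 4355.2. Cst12 was lowest there, at 661.2 against 2317.9 and 1891.1, as was Defb19, at 67.5 against 233.5 and 333.7. The proliferation sum was lowest on replicate 3, at 2062.4, against 2545.9 and 2616.8 on replicates 1 and 2. The part of cell types in this spread was not tested. Without replicate 1 of the primary cells, 11 primary-side genes and 12 genes of the other side still passed limma's test.

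**Figure D3:**
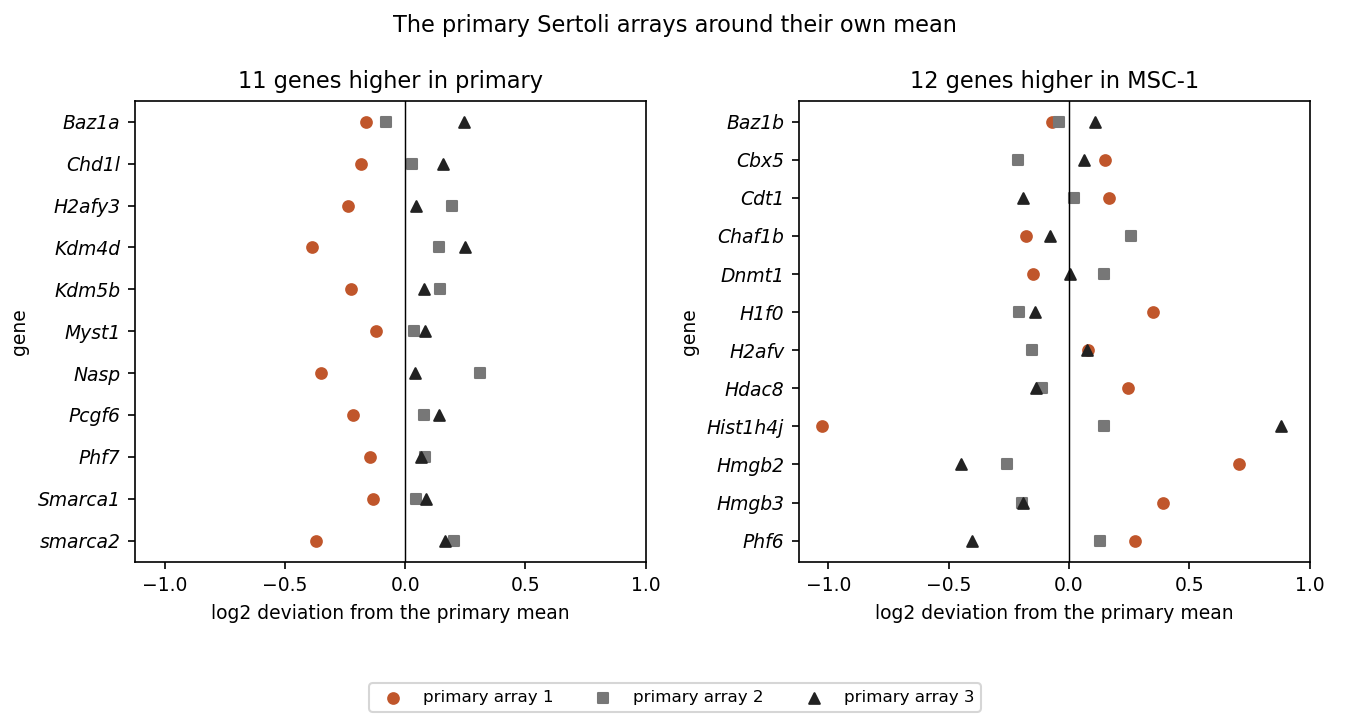
Deviation of the 3 primary Sertoli arrays from their own mean (log2 scale), for the 11 genes higher in primary cells (left) and the 12 higher in MSC-1 cells (right). The circles of array 1 lie left of the other arrays for all 11 genes in the left panel, while in the right panel they lie farthest right for 8 genes and farthest left for 4, Hist1h4j most of all at -1.03.

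The title rule misses chromatin genes whose titles lack its words, so 11 lists of chromatin genes were set against the genes of the authors' table. Together 40 listed genes belonged to them, 22 of them members, and the 18 others were divided 6 to 12 between primary and MSC-1 cells. In comparison, 62.0% of all genes of the table were higher in primary cells. The median log2 difference of the 18 genes was -2.04, against 2.91 for all genes of the table. Folds under a size of 4 are absent from that table, so a median over both sides mainly shows which side holds more genes. The gap between these medians therefore does not measure the size of a shift. All 40 passed limma's test, as nearly every probe set of that table did. The other genes of these lists were not analysed here.

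Of 16 DNA methylation genes 5 were listed, all on the MSC-1 side, which holds 872 of the 2295 genes of the table. Besides Dnmt1 they included Uhrf1, the gene of the factor that brings Dnmt1 to newly copied DNA, Mbd4, the gene of a repair enzyme that binds methylated DNA, and Tet1, an enzyme gene that oxidises methylated cytosine. Mbd4 had 37.4, 40.5 and 32.9 in primary and 239.1, 250.5 and 283.4 in MSC-1 cells, a log2 difference of -2.80 ± 0.16 (SE). Uhrf1, written UHRF1 in the file, had 32.5, 48.5 and 52.1 in primary and 219.7, 161.7 and 206 in MSC-1 cells, a log2 difference of -2.16 ± 0.25 (SE). The title of the Uhrf1 probe set also names a predicted gene and an entry similar to the protein Np95, so which of them it read is uncertain. Tet1 was dim in primary cells, at 7.50, 13.9 and 4.10, against 53.9, 35.2 and 54.7 in MSC-1 cells.

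Of 42 polycomb genes 6 were listed, and 5 of them were higher in primary cells, where 62.0% of all genes of the table were higher. Sfmbt2, an MBT domain gene, had 265.7, 385.1 and 362.6 in primary and 5.73, 0.693 and 7.37 in MSC-1 cells. The signal of 0.693 lay under the floor of 1. The log2 difference of Sfmbt2 was 6.58 ± 0.80 (SE), or 95.8-fold, while the authors' deposited table gives 50.6-fold. Scml2, a polycomb gene known from mouse male germ cells, had 187.2, 286.8 and 262.1 in primary and 5.44, 11.2 and 12.6 in MSC-1 cells, a log2 difference of 4.72 ± 0.38 (SE). Eed, a core subunit of the polycomb complex that methylates histone H3, had 98.4, 148.3 and 135.5 in primary and 11.8, 27.7 and 10.3 in MSC-1 cells, a log2 difference of 3.07 ± 0.43 (SE). Yaf2 was the exception, at 280, 244.5 and 196.8 in primary and 1288.5, 1210.6 and 1205.3 in MSC-1 cells. Sfmbt1 and Pcgf6 completed the group on the primary side.

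Listed histone chaperones were divided 1 to 4, with Hjurp, the chaperone gene of the centromere, at 257.7, 206.9 and 257.9 in primary and 1560.2, 1074.8 and 1264.8 in MSC-1 cells. Anp32e was on the same side as Hjurp and Chaf1b. The 7 listed readers were divided 2 to 5, and Atad2, a bromodomain ATPase gene, had 177.8, 156.3 and 146.1 in primary and 2537.1, 1944.1 and 2631.4 in MSC-1 cells. Its log2 difference of -3.88 ± 0.19 (SE; adjusted p = 0.000216) exceeded in size that of every member on the MSC-1 side. Zmynd8, the other reader gene found through the lists alone, was also higher in MSC-1 cells. The 5 listed ATP-dependent remodellers were divided 4 to 1, with Ep400 at 286.7, 424.1 and 461.4 in primary and 35.3, 50.4 and 57.3 in MSC-1 cells, and Atrx at 72.7, 44.3 and 50.3 against 220.5, 225 and 236.2.

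Few genes of the enzyme lists were listed. Of 26 genes of histone acetyltransferases and their complexes, only Myst1 was in the table. Of 48 histone methyltransferase genes, only Setd5 was, and it was higher in MSC-1 cells at 193.2, 201.6 and 249 against 52.8, 57.8 and 52.4. Of 30 genes of deacetylases and their complexes, Hdac8 and Sirt3 were listed on opposite sides, and Sirt3, a mitochondrial deacetylase gene, had 352.9, 541.4 and 521.1 in primary and 107.3, 98.0 and 85.2 in MSC-1 cells. Of 22 demethylase genes the 2 members Kdm4d and Kdm5b were the ones listed, and of 18 high mobility group genes the 2 members Hmgb2 and Hmgb3.

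**Figure D4:**
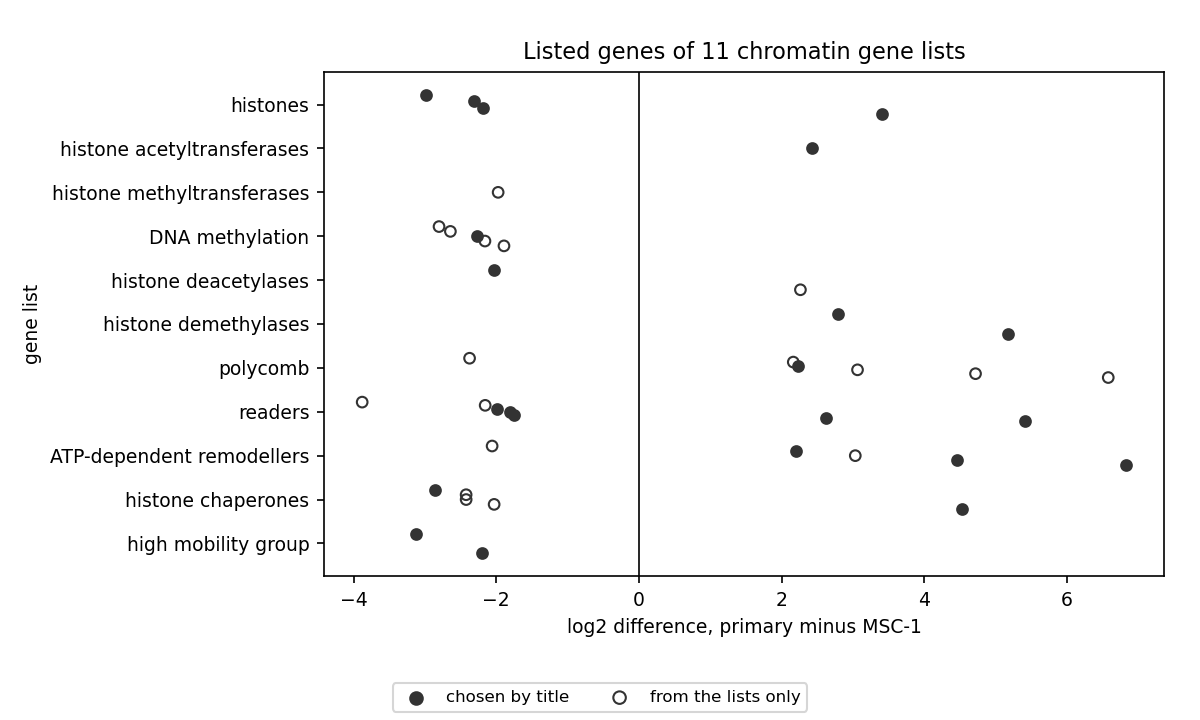
Log2 difference (primary minus MSC-1) of every gene of the 11 chromatin lists that stands in the authors' table, with filled circles for genes chosen by their title and open circles for genes found through the lists alone. All 5 DNA methylation genes lie left of 0 and 5 of 6 polycomb genes right of it. The histone, deacetylase, reader, remodeller and chaperone lists also hold both sides.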

How the data were processed

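RNA of 6 samples was measured on 1-colour Affymetrix arrays, 1 array per sample. The authors deposited a table of signal intensity for 45101 probe sets and a table of signed folds, as a ratio or minus its inverse, for 3198 probe sets, and the latter holds no fold under a size of 4. Per the submitters' processing notes GCOS was used, with no role or version, and the sources used here do not give how the intensity values were scaled or the folds made. All arrays have a 2% trimmed mean of 124.5 to 124.6, computed here. Of 6784 probe sets at 4-fold or more in the value table, 2989 are in the authors' table, so its selection used other values or further criteria.

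Signals under 1 were set to 1, which touched 5.10% to 7.68% of probe sets per array, then log2 was taken, with no further normalization. After 64 control probe sets were left out, limma 3.58.1 in R 4.3.3 (lmFit and eBayes) fitted 45037 probe sets, with Benjamini-Hochberg adjustment. Each SE comes from the variance that eBayes moderates across probe sets. Detection calls were not used here, so the number of arrays and the dim end of the scale limit the precision. Probe sets were named from the authors' table only: 3069 carry 1 symbol, and 2332 symbols were matched to RefSeq (GRCm38.p6), 1814 as current, 65 by letter case, 334 as synonyms and 119 not at all. The planned count of the chromatin lists over the whole array was therefore limited to that table. A gene takes its listed probe set with the highest mean log2 signal over the 6 arrays. Values per array are given for up to 4 members per role and side with the largest difference, which covers all members, and for up to 3 further genes per list. Yaf2 was given values beyond this rule, after they were seen, as the exception to its list. Roles of members were assigned, and promoter motifs chosen, after the members were known. Some genes counted in the lists are not reported here by name. The members and lists were chosen with earlier results of these data known. Python 3.11.15, numpy 2.4.6, pandas 2.3.3 and matplotlib 3.10.9 were used.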

Additional observations from a re-analysis of the deposited data

How the results depend on the processing

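All 23 genes kept their direction and, wherever they were tested, their side of the threshold under the alternatives run. Of 339 values 332 counted as unchanged. For tested values this asked only for the same direction and call, and for the authors' deposited folds a move within the spread between replicates. The other 7, all from those folds, moved without a change of side. Because the members were selected on this contrast, kept calls say little about them. Sizes did change: Smarca2 went from 6.83 to 2.63 with 32 added to the signals. Leaving out dim probe sets removed 2 genes from the test, and leaving out probe sets ending in _s_at, _x_at or _a_at removed 4, which gave 10 and 11, and 9 and 10, genes higher in primary and in MSC-1 cells. A limit of 8-fold on the folds of the authors' deposited table left 5 members higher in primary cells and 2 higher in the line, since fewer genes pass a stricter limit. Adding 32 to every signal shrank the log2 differences of Cbx5, H2afy3, Hdac8, Hist1h4j, Hmgb2, Kdm4d, Smarca1 and Smarca2 by more than 1.5 times, which follows from their low signals in the dimmer group, and the highest adjusted p among the members was then 0.000937.

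No pairing by replicate number was seen: deviations of same-numbered arrays correlated at -0.032 to 0.004, and those of differently numbered arrays at -0.029 to 0.046. With 3 arrays per group and correlations over the whole array, this cannot exclude pairing. With the replicate number as a block (replicate block), the count of probe sets called higher in MSC-1 cells went from 8165 to 5031, and that of probe sets higher in primary cells from 7688 to 5600. All 23 members passed with the block, with adjusted p-values up to 0.028, and of the 23 listed chromatin genes higher in MSC-1 cells 22 passed. Leaving out 1 array at a time gave 5308 to 8427 probe sets higher in MSC-1 cells and 5891 to 7313 higher in primary cells, lowest for MSC-1 without replicate 3 of the MSC-1 cells. The counts of members stayed at 11 and 12 and those of list genes at 17 and 23 in these fits. Quantile normalization shifted the median difference of all probe sets from -0.05 to -0.22 and centring on medians to -0.30 on the log2 scale, and the array-wide counts higher in primary and in MSC-1 cells became 6983 and 9152, and 6115 and 10975.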
